A study of Mus musculus with 6 samples.

Results

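Neurexins, neuroligins and calsyntenins are transmembrane adhesion proteins of synapses. Neurexins sit on the presynaptic membrane and bind neuroligins on the opposite membrane, and both families bind scaffold proteins inside the cell. Calsyntenins carry cadherin repeats outside the cell, and Clstn1 also links vesicles to the motor kinesin-1 for transport along axons. In a sympathetic ganglion such contacts join the preganglionic cholinergic axons to the principal neurons.

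The data described here cover 8 of these genes, Nrxn2, Nrxn3, Nlgn1, Nlgn2, Nlgn3, Clstn1, Clstn2 and Clstn3. They were measured by 19 of the 45101 probe sets of an Affymetrix mouse genome array, taken as all probe sets annotated with exactly 1 of these symbols. The genes were chosen by name, with the lower Nrxn3 values after aortic constriction already known from an earlier analysis of the same arrays. The differences between the groups are therefore a description, and counts of these probe sets past a threshold are given only beside the same counts over all probe sets.

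The TAC ganglia came from 3 mice 8 weeks after transverse aortic constriction (TAC), an operation that narrows the aorta and loads the left ventricle with pressure. The ganglia compared with them came from 3 mice 8 weeks after a sham operation. All were male C57/Bl6 mice, no other genotype or agent is named for either group, and each array carried RNA pooled from both stellate ganglia of 1 animal. Arrays are named by the letter in their titles (TAC A, B, C and sham A, B, C). The age of the mice is not stated here.

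The stellate ganglion is a mixed tissue, in which fewer cells of a type and less RNA per cell cannot be told apart. All 11 annotated markers of sympathetic neurons lay above the floor, a mean log2 intensity of 4 over all arrays below which a probe set was called dim. Their summed linear intensity was 105795 to 107087 on the TAC arrays and 100028 to 109646 on the sham arrays. Th and Slc18a2 were higher on every TAC array than on any sham array, with log2 differences of 0.24 and 0.29. The groups overlapped for the other neuron markers. Over the tested probe sets the arrays correlated at 0.980 to 0.994, and TAC B had the lowest mean correlation with the others, 0.984. The summed level of 6 satellite glia and Schwann cell markers, all above the floor, was 13069 on TAC B. It was 18847 and 17840 on TAC A and C, and 18540 to 21113 on the sham arrays. This sum was carried mainly by Fabp7, at a log2 intensity of 13.76, 13.11 and 13.73 on TAC A, B and C. It was 13.80 to 14.08 on the sham arrays, so all TAC arrays lay below all sham arrays, by a gap of 0.03. S100b was also lowest on TAC B, while Cdh19, Sox10, Erbb3 and Gja1 were not. Of 7 skeletal muscle markers 5 lay above the floor, with Mylpf and Tnnt3 dim. The whole muscle list summed to 84.1 to 284 on the TAC arrays, and to 797, 70.8 and 1541 on sham A, B and C. The fat list, with 4 of 5 genes above the floor and Lep dim, was high on TAC B at 5043 and on sham C at 7955, against 1583 to 2147 on the other 4 arrays. The fibroblast list, with all 6 genes above the floor, summed to 7303 to 10062 on the TAC arrays and 8285 to 8648 on the sham arrays. Its median log2 difference was -0.27. The macrophage list, with 5 of 7 genes above the floor, summed to 855 to 1014 on the TAC arrays and 900 to 1122 on the sham arrays. Its median log2 difference was -0.13. The part of these cells and tissues in the results below was not tested.

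Of the 19 probe sets, 10 lay above the floor and represented 6 genes, and 9 were dim. Nlgn1 and Clstn3 had only dim probe sets. The nearest probe sets on the 2 sides of the floor both belonged to Nrxn3, 1439629_at with a mean of 4.31 and 1438193_at with a mean of 3.69. Among the 10, the TAC mean was lower for 8 and higher for 2, where 43.9% of all tested probe sets had a lower TAC mean. All 3 TAC arrays lay below all 3 sham arrays for 2 of them, 1 probe set of Nrxn3 and 1 of Clstn2, against 8.85% of all 17550 tested probe sets. The reverse order was seen for 0 of the 10, against 9.02% of all. Without TAC B, or with arrays weighted by quality, 5 of the 10 had a lower TAC mean.

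Limma, a linear model with moderated variances, called 0 of the 10 at an adjusted p under 0.05, and 0% of all tested probe sets. At an unadjusted p under 0.05 there were 2 of the 10 with TAC lower, against 3.05% of all probe sets, and 0 with TAC higher, against 6.03%. Since the members were chosen with this contrast known, nothing is read from these counts. The median difference over the 10 probe sets was -0.04 on the log2 scale, beside 0.03 over all tested probe sets.

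**Figure D1:**
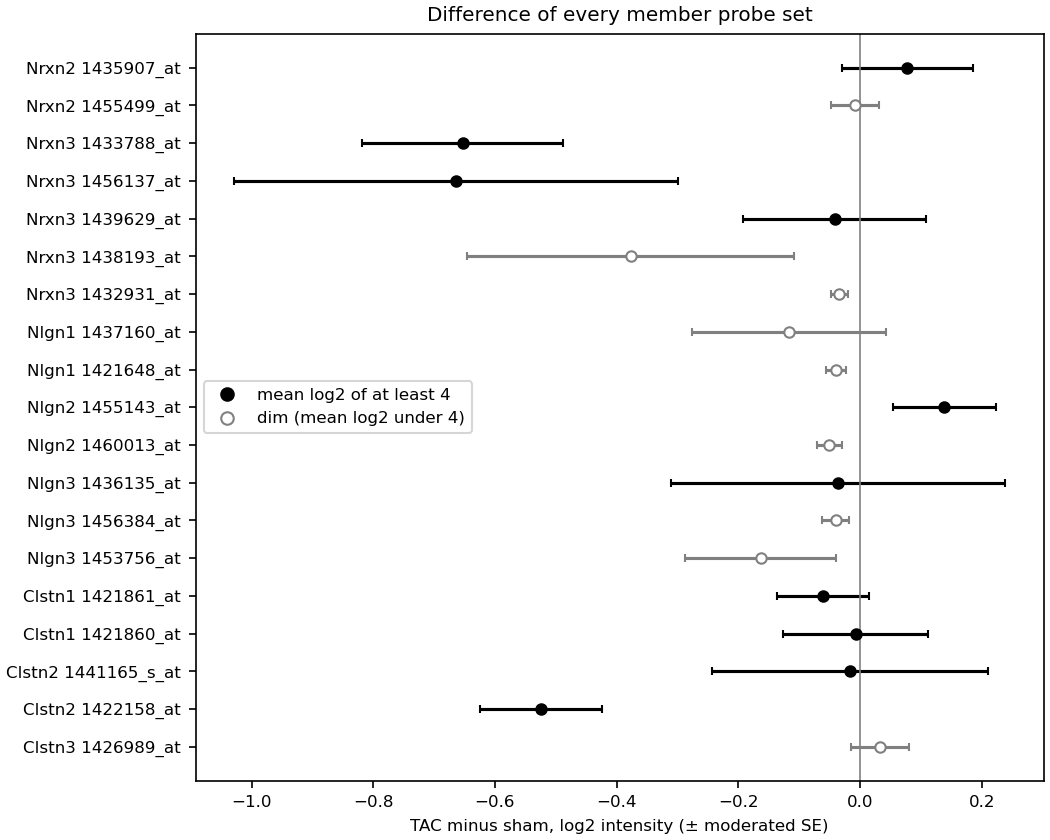
TAC minus sham difference in log2 intensity (x axis) of all 19 probe sets (y axis), with bars for limma's moderated standard error. Bars of the dim probe sets come from a separate fit with no floor, so their lengths do not compare directly with those of the filled points. The 2 brighter Nrxn3 probe sets lie at -0.65 and -0.66 and a Clstn2 probe set at -0.52, while the other filled points, which are above the floor, lie between -0.06 and 0.14.

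The promoter windows of Nrxn3 and Clstn2 are shown because these 2 genes each had a probe set whose TAC arrays all lay below the sham arrays. Each window runs from 250 bases before to 50 bases after a RefSeq start, on build GRCm38.p6, and is written 5′ to 3′ on the strand of the gene. Capitals mark the letters searched for on both strands, which were GGGCGG (a GC box), TGACG (the core of a cyclic AMP response element), its full palindrome TGACGTCA, which contains the core on both strands, and TATAAA. Nrxn3 has 3 windows, with the other starts 158886 and 1017979 bases downstream of the first. Clstn2 has 1.
Nrxn3, first start, chr12:88794254-88794553, plus strand: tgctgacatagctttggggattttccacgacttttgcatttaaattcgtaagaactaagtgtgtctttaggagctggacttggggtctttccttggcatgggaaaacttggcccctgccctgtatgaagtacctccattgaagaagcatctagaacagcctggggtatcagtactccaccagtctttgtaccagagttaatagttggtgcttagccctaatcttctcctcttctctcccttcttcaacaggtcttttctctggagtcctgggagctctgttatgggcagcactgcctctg
Nrxn3, second start, chr12:88953140-88953439, plus strand: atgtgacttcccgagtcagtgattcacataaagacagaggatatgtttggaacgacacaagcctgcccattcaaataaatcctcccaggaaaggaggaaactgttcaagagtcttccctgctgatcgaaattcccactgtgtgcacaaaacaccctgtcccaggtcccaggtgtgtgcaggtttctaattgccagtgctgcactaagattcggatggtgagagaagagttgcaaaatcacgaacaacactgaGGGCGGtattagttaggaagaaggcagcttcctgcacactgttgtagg
Nrxn3, last start, chr12:89812233-89812532, plus strand: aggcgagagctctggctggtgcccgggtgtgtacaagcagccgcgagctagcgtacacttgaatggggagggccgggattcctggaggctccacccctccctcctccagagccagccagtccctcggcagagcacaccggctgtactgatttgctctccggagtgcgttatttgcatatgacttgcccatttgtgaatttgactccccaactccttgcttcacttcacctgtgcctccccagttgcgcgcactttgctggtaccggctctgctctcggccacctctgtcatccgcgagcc
Clstn2, chr9:98033118-98033417, minus strand: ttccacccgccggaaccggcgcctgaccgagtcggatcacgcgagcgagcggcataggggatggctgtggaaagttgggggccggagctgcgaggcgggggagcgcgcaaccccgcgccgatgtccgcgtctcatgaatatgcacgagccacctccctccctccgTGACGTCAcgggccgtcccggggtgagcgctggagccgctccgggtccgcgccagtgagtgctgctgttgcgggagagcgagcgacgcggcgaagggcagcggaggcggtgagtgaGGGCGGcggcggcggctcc

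The Clstn2 window was rich in G and C, at 72.7% with 43 CG pairs, against medians of 52.7% and 7 over all 32851 promoter windows. It held TGACGTCA at base 166, a word found in 1.79% of all windows, and GGGCGG at base 282, found in 35.7%. The 3 Nrxn3 windows had 47.3%, 47.7% and 60.7% G and C and 2, 6 and 16 CG pairs. Only the second held a searched word, GGGCGG at base 253, and none held TGACG, which 20.8% of all windows have. TATAAA, present in 13.6% of all windows, was in none of the 10 windows of the members. These 10 belong to Nrxn3, Nlgn1, Nlgn2, Clstn1, Clstn2 and Clstn3. Clstn3, dim on these arrays, was the other member with TGACGTCA, at base 250 of its first window. A match of letters is a description of the sequence only.

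Among the neurexins, Nrxn3 was measured by 5 probe sets that did not move alike. The brightest, 1433788_at, had log2 intensities of 6.75, 6.20 and 6.55 on TAC A, B and C, against 7.26, 7.25 and 6.94 on sham A, B and C. The groups did not overlap, with TAC B lowest, and the highest TAC array lay 0.19 below the lowest sham array. The means were 6.50 ± 0.28 in TAC ganglia and 7.15 ± 0.18 in sham ganglia (SD, n = 3 each), a difference of -0.65 (SE 0.17), or 0.636 times the sham level. Of the tested probe sets, 76 had a lower difference. Leaving out 1 array at a time gave -0.78 to -0.50, the value nearest 0 being that without TAC B.

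The second Nrxn3 probe set, 1456137_at, measured 6.32, 5.21 and 6.51 on TAC A, B and C, against 7.08, 6.49 and 6.45 on sham A, B and C. TAC B stood more than 1 log2 unit below every other array, and TAC C lay above sham B and sham C, so the groups overlapped. Its means were 6.01 ± 0.70 in TAC ganglia and 6.67 ± 0.35 in sham ganglia (SD, n = 3 each), a difference of -0.66 (SE 0.36). Without TAC B the difference was -0.26, and without TAC C it was -0.91. The 2 brightest Nrxn3 probe sets thus had nearly the same mean difference, while that of the second moved further when TAC B was left out.

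The third Nrxn3 probe set above the floor, 1439629_at, showed no such gap. It measured 4.39, 4.20 and 4.29 on TAC A, B and C, against 4.18, 4.65 and 4.17 on sham A, B and C. Sham B was highest and the other arrays lay within a narrow band, with a difference of -0.04 (SE 0.15). Set against this weaker probe set on the same arrays, the brightest probe set was 2.36, 2.00 and 2.26 log2 units higher on TAC A, B and C, and 3.09, 2.59 and 2.77 higher on sham A, B and C. That within-array gap was lower on every TAC array than on any sham array. Its TAC minus sham difference of -0.61 mostly repeated the lower TAC values of the brightest probe set, so it is no separate result. With a mean of 4.31 the weaker probe set lay close to the floor of 4, and whether it could show a change was not tested. The array's annotation does not say which Nrxn3 transcript each probe set reads. Neurexin genes give long alpha and short beta forms from separate starts, with many spliced variants.

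Of the 2 dim Nrxn3 probe sets, 1438193_at measured 3.57, 3.13 and 3.81 on TAC A, B and C, against 4.29, 3.52 and 3.83 on sham A, B and C. Its groups overlapped, TAC B was again lowest, and the difference was -0.38. The other, 1432931_at, had a mean of 2.20 and a range of only 0.05 over all arrays, at the bottom of the scale.

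Nrxn2, the other neurexin measured, did not follow Nrxn3. Its probe set 1435907_at had 6.73, 6.44 and 6.60 on TAC A, B and C, against 6.56, 6.59 and 6.39 on sham A, B and C. The groups overlapped, with the highest value on TAC A and the lowest on sham C. The difference was 0.08 (SE 0.11), with a range of 0.01 to 0.15 when single arrays were left out. A second Nrxn2 probe set, 1455499_at, was dim at a mean of 2.48.

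**Figure D2:**
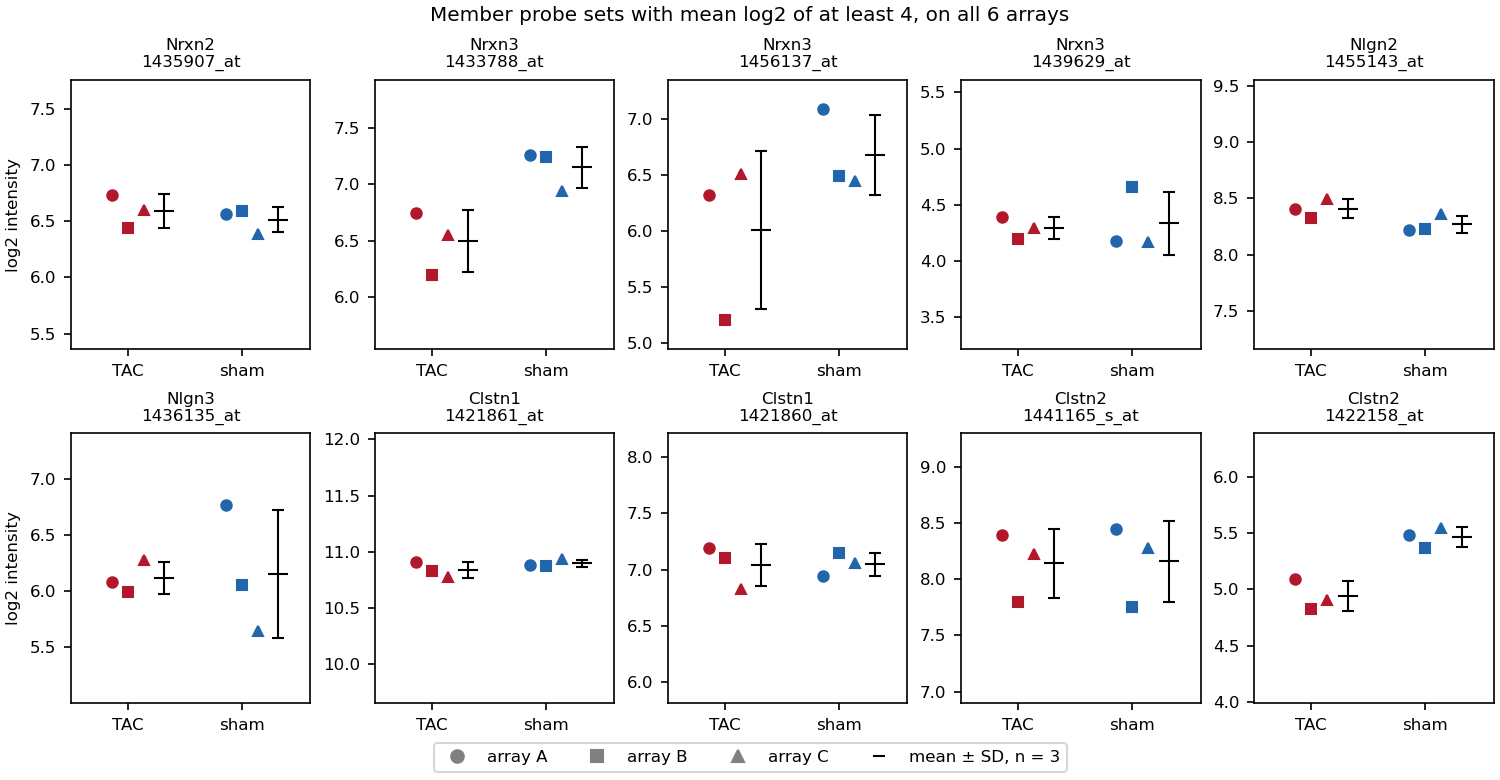
Log2 intensity (y axis, with the same span in each panel) of the 10 probe sets above the floor on the 3 TAC and 3 sham arrays (x axis), with symbols for the array letter and bars for mean ± SD (n = 3 each). In Nrxn3 1433788_at and Clstn2 1422158_at every TAC point lies below every sham point, and in the other 8 panels the groups overlap.

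Among the neuroligins, Nlgn2 had the highest difference of the 10 probe sets. Nlgn2 is the neuroligin best known from inhibitory synapses of the brain. Its probe set 1455143_at measured 8.41, 8.32 and 8.49 on TAC A, B and C, against 8.22, 8.23 and 8.36 on sham A, B and C. Sham C lay above TAC B, so the groups overlapped, and all 6 values fell within 0.27 of each other. The means were 8.41 ± 0.08 in TAC ganglia and 8.27 ± 0.08 in sham ganglia (SD, n = 3 each), a difference of 0.14 (SE 0.08), or 1.10-fold. Leaving out 1 array at a time gave 0.10 to 0.18. Its second probe set, 1460013_at, was dim at a mean of 2.74.

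Nlgn3 varied more among sham animals than between the groups. Its brightest probe set, 1436135_at, measured 6.09, 5.99 and 6.28 on TAC A, B and C, against 6.76, 6.06 and 5.64 on sham A, B and C. Both the highest and the lowest value were sham arrays, which spanned 1.12 log2 units, against 0.28 for the TAC arrays. The difference of -0.04 (SE 0.27) took either sign when single arrays were left out, from -0.29 to 0.27. On the dim probe set 1453756_at, with a mean of 2.74, sham A was again the highest, at 3.10 against 2.66 to 2.68 on the other 5 arrays. The remaining Nlgn3 probe set, 1456384_at, was dim at 3.13.

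Nlgn1, the neuroligin best known from excitatory synapses of the brain, was dim on both of its probe sets. The brighter, 1437160_at, measured 3.34, 3.17 and 3.75 on TAC A, B and C, against 3.60, 3.50 and 3.51 on sham A, B and C. The other, 1421648_at, had a mean of 2.24. Values this low do not show that the gene is silent in the ganglion.

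Among the calsyntenins, Clstn1 was steady. Its probe set 1421861_at was the brightest of all 19 and measured 10.91, 10.83 and 10.77 on TAC A, B and C, against 10.89, 10.88 and 10.93 on sham A, B and C. All 6 arrays lay within 0.16 log2 units and the groups overlapped, with a difference of -0.06 (SE 0.08). The second probe set, 1421860_at, measured 7.19, 7.10 and 6.83 on TAC A, B and C, against 6.94, 7.15 and 7.06 on sham A, B and C, with a difference of -0.01 (SE 0.12).

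Clstn2, expressed mainly in neurons, gave 2 different readings. The probe set 1422158_at measured 5.09, 4.83 and 4.90 on TAC A, B and C, against 5.48, 5.37 and 5.54 on sham A, B and C. The groups did not overlap, the highest TAC array lying 0.27 below the lowest sham array, and TAC B did not stand apart. The means were 4.94 ± 0.14 in TAC ganglia and 5.46 ± 0.09 in sham ganglia (SD, n = 3 each), a difference of -0.52 (SE 0.10), or 0.695 times the sham level. Leaving out 1 array at a time gave -0.60 to -0.47. With 16 added to each linear intensity before the log, which by construction shrinks differences between low intensities, the difference was -0.36.

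The brighter Clstn2 probe set, 1441165_s_at, measured 8.40, 7.80 and 8.23 on TAC A, B and C, against 8.44, 7.75 and 8.28 on sham A, B and C. The low arrays were TAC B and sham B, 1 in each group, and the difference was -0.02 (SE 0.23). In Affymetrix naming the suffix _s_at marks probes that match more than 1 transcript. Within each array the brighter set exceeded the other by 3.30, 2.97 and 3.33 on TAC A, B and C, and by 2.96, 2.38 and 2.74 on sham A, B and C. That gap was wider on every TAC array than on any sham array, though TAC B and sham A were nearly equal. As the brighter set differed by only -0.02, the wider gap mostly repeated the lower TAC values of the weaker set and is no separate result. The rule that the brightest probe set stands for a gene would give Clstn2 a difference of -0.02, and the mean of both gives -0.27.

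**Figure D3:**
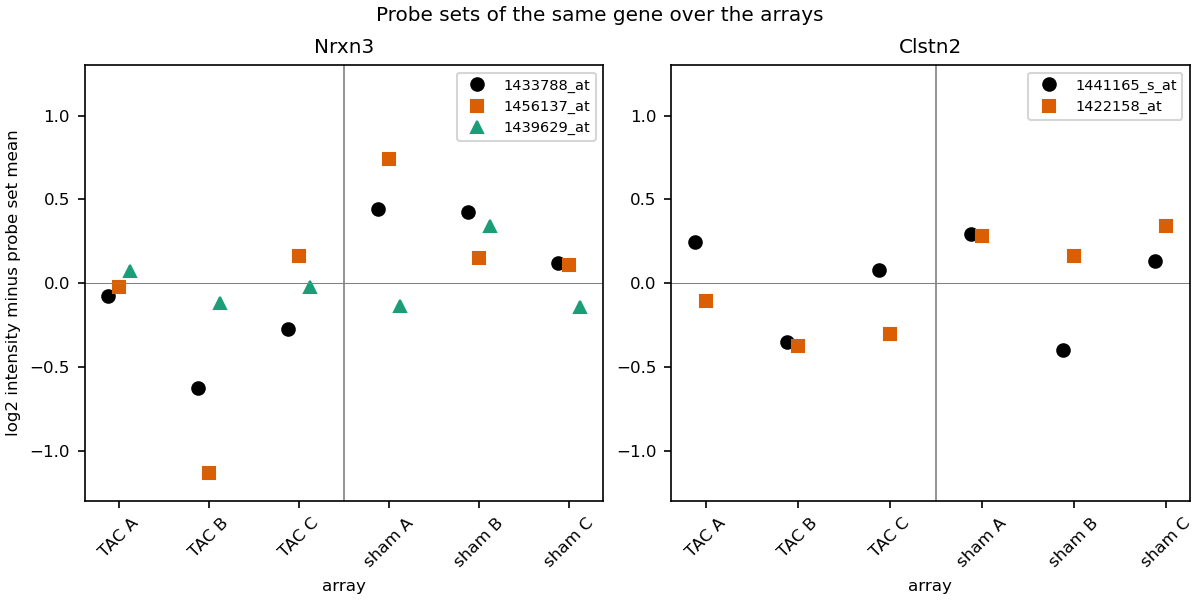
Log2 intensity minus the mean of each probe set (y axis) for the probe sets of Nrxn3 and Clstn2 above the floor, on the 3 TAC and 3 sham arrays (x axis), with 1 symbol and colour for each probe set. The 2 brighter Nrxn3 sets are lowest on TAC B while 1439629_at stays near 0 there, and Clstn2 1422158_at is below 0 on every TAC array while 1441165_s_at is low on TAC B and sham B.

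Clstn3, a calsyntenin known to bind neurexins, was measured by 1426989_at alone, which was dim with a mean of 2.62. Of the 9 dim member probe sets, 8 had a lower TAC mean, and in 4 all TAC arrays lay below all sham arrays. Over the whole table, 87.0% of the 27487 dim probe sets had a lower mean on the TAC arrays, against 43.9% of the tested ones, and 71.6% had all TAC arrays below all sham arrays. No difference of a dim probe set is read here as a change.

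The genes whose array profiles were most like that of Nrxn3 1433788_at were sought among the brightest probe sets of all 9955 genes above the floor. Likeness was measured as the root mean square gap between log2 profiles over the 6 arrays after each gene's own mean was subtracted. The nearest was Smoc2, a secreted matricellular protein, with a gap of 0.05 log2 units, where the Nrxn3 profile itself spread by 0.38. Next came Itga6, a laminin-binding integrin subunit, at 0.08, Ahsa2, a relative of an Hsp90 activator, at 0.08, the chaperone Hsph1 at 0.09 and the vasoactive peptide precursor Edn3 at 0.11. All 5 were lower on every TAC array than on any sham array, and each was lowest on TAC B. Since they were chosen for likeness to this profile, that shared order is no separate result. The genes nearest to Nlgn2 were Rbfa, Syvn1, Hexim1, Bzw1 and Ywhah, with gaps of 0.02 to 0.03 against a spread of 0.10 for Nlgn2 itself.

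The partner genes of these families were taken from 6 lists of neurexin ligands, presynaptic and postsynaptic scaffold proteins, other synaptic adhesion proteins, regulators of neurexin splicing, and proteins that carry or process calsyntenins. Above the floor lay 85 genes, and limma called 0 of them at an adjusted p under 0.05. At an unadjusted p under 0.05 there were 7 with TAC lower and 3 with TAC higher, where 3.32% and 5.43% of all genes passed. The TAC arrays lay wholly below the sham arrays in 13 genes and wholly above in 5, where 9.09% and 8.78% of all genes did so. Cbln1 and Ptprd had a TAC mean under the floor and passed it only through their sham values. Among the 83 genes with both group means above the floor, a restriction added after the data had been seen, an unadjusted p under 0.05 was found for 5 with TAC lower and 3 with TAC higher, where 3.27% and 5.34% of all such genes passed. The TAC arrays lay wholly below the sham arrays in 11 of these 83 and wholly above in 5, where 9% and 8.71% of all such genes did so. Over all 85 genes, the TAC mean was lower in 54, and their median difference was -0.07, beside 0.02 over all genes. Without TAC B the count and median of these 85 were 41 and 0.01, and without sham A 44 and -0.02. The same values over all genes were not computed with those arrays left out. Without sham A, 5 of the 85 genes with TAC lower and 6 with TAC higher had an unadjusted p under 0.05. Of all 17545 probe sets tested in that setting, 1675 passed in either direction.

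Of 22 neurexin ligands with a probe set, 10 lay above the floor, with a median difference of -0.07. Cbln1 is a secreted partner that bridges neurexins to glutamate receptors of the delta type in the cerebellum. It averaged 3.98 ± 0.17 in TAC ganglia and 4.65 ± 0.57 in sham ganglia (SD, n = 3 each). The groups did not overlap, though by a gap of only 0.02. Its TAC mean lay under the floor, and with TAC set at the floor the difference of -0.67 became -0.65. Cntnap2, a neurexin-like protein of axons, was higher on every TAC array, at 8.07, 8.15 and 8.14, against 7.88, 7.33 and 7.79 on sham A, B and C. Its difference was 0.45 (SE 0.15), and that of its other tested probe set 0.35. Nxph3, a secreted neurexophilin that binds alpha-neurexins, was at 0.29 and Lrrtm1, a postsynaptic neurexin receptor, at -0.36, with overlapping groups.

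All 19 presynaptic scaffold genes lay above the floor, with a median of -0.10. Epb41l3, a protein 4.1 that ties membrane proteins to the actin skeleton, was at 0.26 (SE 0.07), with 10.38, 10.35 and 10.38 on TAC A, B and C, against 10.16, 10.08 and 10.09 on sham A, B and C. Lin7b, which forms a complex with Cask behind neurexins, was at -0.51 (SE 0.14), but its 2 other tested probe sets were both at -0.04. The active zone protein Bsn at -0.22 and Lin7a at -0.14 also had groups that did not overlap, though by gaps of only 0.005 and 0.048.

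Of 19 postsynaptic scaffold genes 16 lay above the floor, with a median of -0.10. Dlg4 (PSD-95), which binds the tail of neuroligins, measured 6.31, 5.97 and 6.31 on TAC A, B and C, against 5.91, 5.61 and 5.37 on sham A, B and C. All TAC arrays lay above all sham arrays, with a difference of 0.56 (SE 0.17). Dlgap3, a partner of Dlg4, was at -0.27 (SE 0.09), again with groups that did not overlap. Gphn, the gephyrin that anchors inhibitory receptors and binds Nlgn2, was at 0.30 with overlapping groups. Dlg2 was at 0.17 without overlap, though by a gap of only 0.01.

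Of 39 other adhesion genes 24 lay above the floor, with a median of -0.08, and 6 had all TAC arrays below all sham arrays, against 9.09% of all genes. Without Ptprd these were 5 of 23. Ptprd, a receptor phosphatase of the presynaptic side, had 3.80, 3.81 and 3.81 on TAC A, B and C, against 5.28, 4.14 and 5.02 on sham A, B and C. Its TAC values lay under the floor, and with TAC set there the difference of -1.01 became -0.82. Tenm4, a teneurin, measured 8.54, 7.48 and 8.42 on TAC A, B and C, against 9.20, 9.07 and 8.84 on sham A, B and C. As in Nrxn3 the TAC arrays lay below and TAC B lowest, with a difference of -0.89 (SE 0.28), and its other probe sets were at -1.03 and -0.88. Nectin3, an immunoglobulin adhesion protein, was at -0.41 (SE 0.13), with 3 other tested probe sets at -0.94 to -0.27. Ntng1, a netrin-G, was at -0.43 (SE 0.15), but its 2 other probe sets were at -0.05 and 0.02.

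The splicing regulators, 7 of 10 above the floor, had a median of -0.01, with Rbfox2 at 0.25, Rbfox1 at 0.16, Khdrbs3 at 0.15 and Nova2 at -0.25. The calsyntenin carriers and proteases, 9 of 10 above the floor, had a median of 0.02, with Adam17 at -0.23, Psen2 at 0.16, App at 0.12 and Kif5c at 0.12. The other tested probe sets of Adam17, at 0.05, and of Kif5c, at -0.10, had the opposite sign. App, the amyloid precursor, was higher on every TAC array, though narrowly on TAC B. Nova2, a neuronal RNA-binding protein, was lower on every TAC array, though narrowly on TAC A and C. The other 6 of these 8 genes had overlapping groups.

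**Figure D4:**
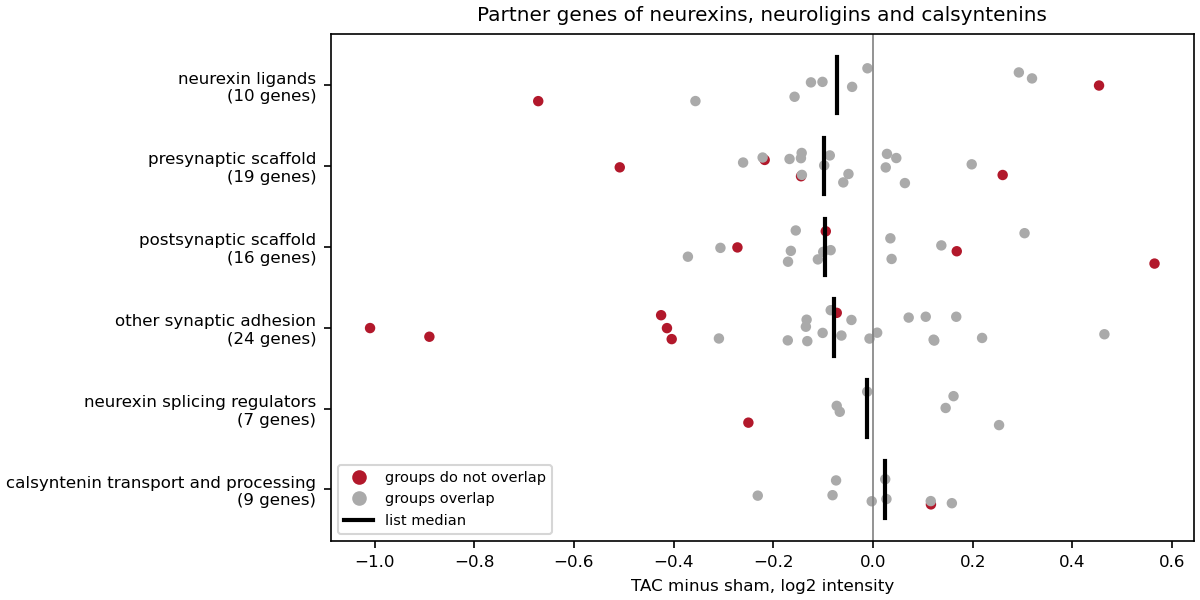
TAC minus sham difference in log2 intensity (x axis) of each partner gene above the floor, by list (y axis), with red points where the groups do not overlap and a black line at the list median. Medians lie between -0.10 and 0.02, and 2 points on the left, among the other adhesion genes, are Tenm4 at -0.89 and Ptprd at -1.01, whose TAC values lie under the floor and which is at -0.82 with TAC set at the floor.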

How the data were processed

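RNA of both stellate ganglia of 1 animal was hybridised to 1 array, giving 3 TAC and 3 sham arrays, per the labels. The authors deposited probe set intensities on a linear scale made with GCRMA, per the submitters' processing notes. GCRMA corrects background by probe sequence and normalizes between arrays, and no source used here gives its settings. Here the intensities were log2-transformed with no pseudocount. Of 45037 probe sets other than controls, GEO's platform annotation gave 34945 a single symbol, 932 several and 9160 none, and genes were named only from a single symbol. Probe sets with a mean log2 under 4 were called dim and not tested. The other 17550 were fitted with limma 3.58.1 in R 4.3.3 (lmFit, eBayes, two-sided, Benjamini-Hochberg, threshold 0.05), and the procedure was tested on simulated data.

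The members and lists were chosen with earlier results of these data known. Named were all members and, from each partner list, the 4 genes of smallest unadjusted p by their brightest probe set. With 3 arrays a group, their number limits the precision. Alternatives covered the floor, quantile normalization, array weights, the variance model, a pseudocount, a block for the title letter and leaving out each array. Leaving out both sham C and TAC B, and asking that both group means reach the floor, were alternatives chosen with the data in view. Same-letter arrays did not deviate together (correlations of 0.08, -0.0031 and -0.17 for A, B and C). Promoter windows are RefSeq's, and figures were drawn with matplotlib 3.10.9.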

Additional observations from a re-analysis of the deposited data

How the results depend on the processing

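The count of probe sets called stayed at 0 except without TAC C, where it was 1, and ranged from 0 to 1 with single arrays left out. It was 0 with the title letter as a replicate block. Each letter has a TAC and a sham array, so the block cannot change a difference. The 8 member probe sets with a lower TAC mean therefore stay the same by construction. The count of partner probe sets called was 0 under each alternative run. The 8 of 10 member probe sets with a lower TAC mean became 16 of 19 with no floor, by construction, 5 with array weights and 5 to 8 with single arrays left out. Genes whose tested probe sets had opposite signs numbered 0, against 2 with no floor, 2 with array weights, 1 without sham C and TAC B and 0 to 2 with single arrays left out. The cause of these shifts was not tested. Over 141 recomputed differences of the 10 probe sets the sign was kept in 128. Another floor, another variance model or the block cannot change a difference, so the sign was kept there by construction. Nrxn3 1433788_at, Nrxn3 1456137_at, Clstn2 1422158_at, Clstn1 1421861_at, Nlgn2 and Nrxn2 kept their sign in each alternative run. The 13 changes of sign fell on Nrxn3 1439629_at, Nlgn3, Clstn1 1421860_at and Clstn2 1441165_s_at. Intensities under the floor limit what can be said of Nlgn1 and Clstn3.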
